A study of Mus musculus with 6 samples.

Results

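A set of 10 genes that mark the dental follicle and the periodontal ligament, or act in them, were followed in the mouse molar furcation. They are Postn, Tnc, Tnn, Thbs2 and Thbs4, which encode matricellular proteins, Tnmd, Scx and Mkx, which belong to tendon and ligament cells, and the ligand and receptor pair Pthlh and Pth1r. The genes were chosen by name, when earlier results of these data were known, and 10 of 10 were found among the 23594 genes of the count table. RNA was sequenced from apical tissue of the furcation development region, the part of the tooth where a multirooted molar divides into separate roots, taken by laser capture from mandibular first molars of C57BL/6 mice at PN4.5 (postnatal day 4.5). The 3 control libraries came from mice whose genotype is given as wild type. The 3 Lhx6-/- libraries came from littermates homozygous for an Lhx6-CreER knock-in allele, which removes the function of the LIM homeodomain factor Lhx6. This allele is carried by every cell of the animal from conception, so the loss is not limited to the captured tissue. Each library held tissue of several molars pooled, and both sexes were collected. The sexes were not balanced between the groups, as given below. No drug or other treatment separated the groups.

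The dental follicle is the loose mesenchyme that surrounds the tooth germ, and it gives rise to the periodontal ligament, the cementum and the alveolar bone that hold the tooth. Periostin (Postn) is the usual marker of follicle and ligament, and cells of the follicle also use parathyroid hormone-related protein (PTHrP, from Pthlh) and its receptor (Pth1r), a signalling pair known for its part in tooth eruption and root formation. Scleraxis (Scx) and Mohawk (Mkx) are transcription factors of the tendon and ligament lineage, and tenomodulin (Tnmd) is a membrane glycoprotein made by mature cells of that lineage.

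The sequences just upstream of 3 of the genes are shown, Postn as the usual ligament marker, Tnmd as the gene with the lowest fold change, and Thbs2 as the only gene of the 10 whose control and Lhx6-/- libraries did not overlap. They are RefSeq promoter windows of GRCm38.p6, written 5′ to 3′ on the gene's strand and ended before the annotated exon, and capitals mark matches to the motifs named after them. The Postn window is chr3:54360857-54361106 on the plus strand, the Tnmd window chrX:133850758-133850979 on the plus strand, and the Thbs2 window chr17:14694263-14694512 on the minus strand.
Postn: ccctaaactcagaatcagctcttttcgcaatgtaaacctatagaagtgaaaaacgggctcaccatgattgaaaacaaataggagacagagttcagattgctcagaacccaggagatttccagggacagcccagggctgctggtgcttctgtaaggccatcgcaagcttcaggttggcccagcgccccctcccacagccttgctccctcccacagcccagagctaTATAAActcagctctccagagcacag
Tnmd: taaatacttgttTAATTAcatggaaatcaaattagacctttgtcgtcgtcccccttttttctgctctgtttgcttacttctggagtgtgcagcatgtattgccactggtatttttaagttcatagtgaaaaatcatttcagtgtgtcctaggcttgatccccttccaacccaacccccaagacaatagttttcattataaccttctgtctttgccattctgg
Thbs2: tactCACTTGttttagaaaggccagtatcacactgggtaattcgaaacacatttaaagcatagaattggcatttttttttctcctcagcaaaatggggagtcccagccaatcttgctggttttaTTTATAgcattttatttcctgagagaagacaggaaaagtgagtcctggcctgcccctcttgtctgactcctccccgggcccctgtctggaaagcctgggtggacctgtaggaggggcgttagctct
In the Postn window the capitals are a TATA box (TATAAA), in the Tnmd window the homeodomain core TAATTA, and in the Thbs2 window a match to the general E-box CANNTG and, further downstream, TATAAA read on the opposite strand. Windows from 250 bases before to 50 after the start were found for 8 of the 10 genes (12 windows), not for Scx and Mkx. Searched on both strands, TAATTA was in windows of 2 genes (Tnmd and Pth1r) and in 5.291% of all 32851 promoter windows, and TATAAA in windows of 3 genes (Postn, Thbs2 and Tnc) and in 13.62% of all. CANNTG was in windows of 5 genes and in 72.31% of all, and its special form CAGATG, which scleraxis can bind, in 0 of the 12 windows and in 17.15% of all. These matches describe letters only, and binding was not measured.

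The libraries held 60132323 to 76157433 estimated counts, and levels are given as CPM, which are counts scaled to the same library total, here with the TMM factors of edgeR (trimmed mean of M values). The transcript of the targeted gene, Lhx6, was at 18.2 to 27.8 CPM in the control libraries and at 9.82 to 12.8 CPM in the Lhx6-/- libraries, without overlap. Its log2 fold change was -1.04 ± 0.16 (SE, n = 3 against 3; adjusted p = 0.0210, by the quasi-likelihood test of edgeR, adjusted after Benjamini-Hochberg). Leaving out Control replicate 3 gave an adjusted p of 0.111, Lhx6-/- replicate 2 one of 0.110 and Lhx6-/- replicate 3 one of 0.0772. Markers of the dental mesenchyme (8 genes, each with a mean of 12.8 CPM or more) were present in every library, and summed to 354 to 386 CPM in control and 416 to 445 CPM in Lhx6-/- tissue. The libraries also held enamel epithelium and odontoblast transcripts at far higher sums. For 11 epithelial markers (mostly Amelx) these were 135767 to 145635 CPM in control and 115085 to 146430 CPM in Lhx6-/- libraries. Gene by gene, 1 of the 11 lay higher in Lhx6-/- tissue, and 4 met the call rule given below. The part of epithelium in the values of the 10 genes was not tested. For 6 odontoblast markers (mostly Col1a1) the sums were 70255 to 91133 CPM. The captured tissue was therefore a mixture, in which fewer cells of a type and less RNA per cell cannot be told apart. Xist, made by the inactive X chromosome of female cells, was at 411 to 792 CPM in the control libraries. It was at 290, 0.228 and 0.054 CPM in Lhx6-/- replicates 1, 2 and 3. The sexes were thus not balanced between the groups, and the part of sex was not tested for any gene. A library is a pool of molars and nothing states which libraries share a litter, so p-values measure the spread between these pools. With 3 libraries against 3, an exact permutation test of a single gene cannot give a two-sided p below 0.1, so the model fitted across 20114 genes was used.

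None of the 10 genes was called different between Lhx6-/- and control tissue. The call rule asked for a 1.5-fold or larger change and an unadjusted p below 0.05, and 0 of 10 met it, beside 3.28% of all genes tested (1.58% higher and 1.71% lower in Lhx6-/- tissue), and 0 of 10 had an adjusted p under 0.05, beside 0.403% of all (edgeR, Benjamini-Hochberg). DESeq2 and limma also gave an adjusted p under 0.05 for 0 of 10, beside 298 of 23587 genes and 74 of 20114 genes. At an unadjusted p under 0.05, 2 of 10 passed in edgeR, Tnmd (lower) and Thbs2 (higher), beside 9.81% of all genes. In 1 of 10, Thbs2, the control and Lhx6-/- libraries did not overlap, beside 15.5% of all genes (7.86% with Lhx6-/- higher) and 17.3% of the 11243 genes at least as abundant as the lowest of the 10. The estimates lay on both sides of no change, 4 above and 6 below, with a median log2 fold change of -0.015 beside -0.0019 for all genes tested.

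How far a change could have been missed differed between the genes. For 8 of 10, all but Tnmd and Pthlh, the 95% interval of the fold lay within 1.5-fold in either direction. That was so for 54.2% of all genes tested and for 90.7% of the genes at least as abundant as the lowest of the 10. The intervals of Tnmd and Pthlh reached past 1.5-fold, downward for Tnmd and upward for Pthlh, so a change of that size in these 2 genes was neither shown nor outside the interval.

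**Figure D1:**
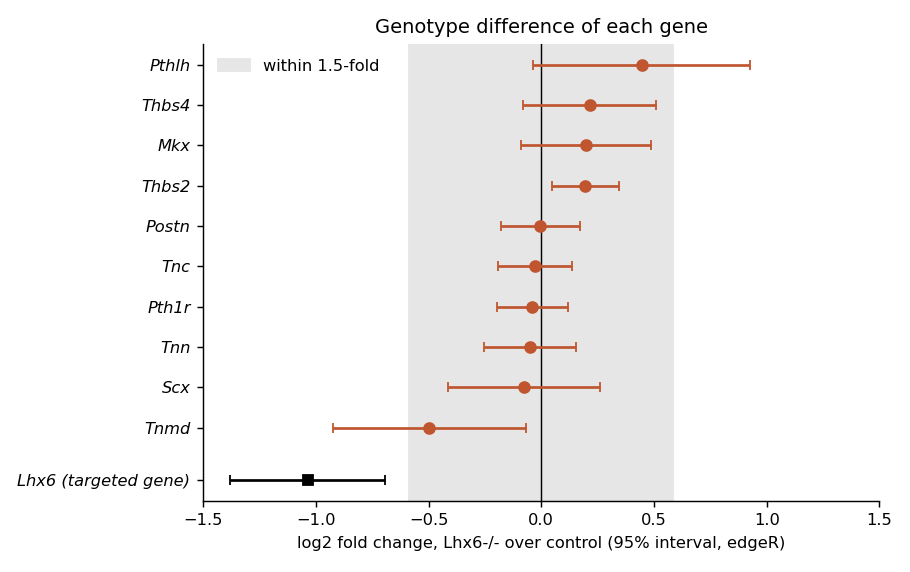
Log2 fold change of each gene, Lhx6-/- over control (points), with its 95% interval from edgeR (bars, 3 against 3 libraries); the grey band is 1.5-fold either way, and Lhx6 is at the bottom. The intervals of 8 genes stay inside the band, and those of Tnmd and Pthlh reach out of it.

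Periostin, a secreted matrix protein that binds collagen and integrins, was at nearly the same level in both groups. Postn (chromosome 3, 54361109 to 54391037 of mm10, plus strand) was at 1006, 931 and 949 CPM in Control replicates 1, 2 and 3, and at 999.9, 992 and 887 CPM in Lhx6-/- replicates 1, 2 and 3. The groups overlapped throughout, and the lowest library was Lhx6-/- replicate 3. The means were 962 ± 39.0 (SD, n = 3) and 960 ± 63.0 CPM (SD, n = 3), and the log2 fold change was -0.0036 ± 0.081 (SE), with a 95% interval from -0.18 to 0.17 (adjusted p = 0.993, edgeR). Its sign was not stable, since upper-quartile and total-count scaling gave a log2 fold change of 0.0054 and 0.013. Behind each value were 56141 to 73866 counts, so counting error was small beside the spread between libraries.

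The 2 tenascins, large glycoproteins of developing connective tissue that modulate cell adhesion, also differed by less than the spread between libraries. Tenascin C (Tnc, chromosome 4, 63959785 to 64047015, minus strand) was at 946, 907 and 968 CPM in the control and at 943, 941 and 886 CPM in the Lhx6-/- libraries. Its log2 fold change was -0.026 ± 0.075 (SE), with a 95% interval from -0.19 to 0.14 (adjusted p = 0.954, edgeR). Tnc shares 176 exon bases with an opposite-strand transcript, 8030451A03Rik, itself at 5.39 CPM, and the sources used here do not say whether counting used strand. Tenascin N (Tnn, chromosome 1, 160085029 to 160153580, minus strand), also called tenascin W, is found around developing bone and in the periodontal ligament. It was at 86.4, 103 and 91.5 CPM in the control and at 88.3, 81.8 and 102 CPM in the Lhx6-/- libraries. The highest libraries of the groups, Control replicate 2 and Lhx6-/- replicate 3, were nearly equal. The log2 fold change of Tnn was -0.050 ± 0.093 (SE), with a 95% interval from -0.25 to 0.15 (adjusted p = 0.927, edgeR). Those same libraries had the highest sums of 6 nerve and glia markers, 546 and 527 CPM against 202 to 432 CPM in the other four, and the part of nerve tissue in the Tnn values was not tested.

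Thrombospondin 2, an inhibitor of angiogenesis that also affects collagen assembly, had higher values in all 3 Lhx6-/- libraries than in any control library, without passing the adjusted test. Thbs2 (chromosome 17, 14665500 to 14694235, minus strand) was at 121, 129 and 125 CPM in the control and at 143, 150 and 136 CPM in the Lhx6-/- libraries. The lowest Lhx6-/- library lay above the highest control library. The means were 125 ± 4.24 and 143 ± 6.64 CPM (SD, n = 3 each), a fold of 1.15 with a 95% interval from 1.03 to 1.27. The log2 fold change was 0.20 ± 0.068 (SE; unadjusted p = 0.0141, adjusted p = 0.341, edgeR), so the difference did not pass the adjustment over all genes. Over 15 alternative fits its adjusted p ran from 0.151 to 0.819. Sums of 12 general mesenchyme genes were separated in the same direction, 1899 to 1945 CPM in control and 2087 to 2093 CPM in Lhx6-/- libraries. The most abundant of the 12 was Vim, with a mean of 1028 CPM. Sums of 8 endothelial markers were separated likewise, 340 to 346 and 380 to 443 CPM. With libraries scaled to equal mesenchyme sums, the log2 fold change of Thbs2 was 0.075, where the median of all genes was -0.12. Less that median, the value of Thbs2 was 0.20. The part of the tissue mixture in the difference was not tested.

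Thrombospondin 4, known from tendon and muscle attachments, varied more than Thbs2. Thbs4 (chromosome 13, 92751590 to 92794818, minus strand) was at 55.8, 41.9 and 42.9 CPM in the control and at 55.7, 46.0 and 61.5 CPM in the Lhx6-/- libraries. Control replicate 1 stood with the Lhx6-/- libraries, and the groups overlapped. Its log2 fold change was 0.21 ± 0.13 (SE), with a 95% interval from -0.082 to 0.51 (adjusted p = 0.682, edgeR), and leaving out 1 library moved it to between 0.12 (without Lhx6-/- replicate 3) and 0.36 (without Control replicate 1, adjusted p = 0.219).

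**Figure D2:**
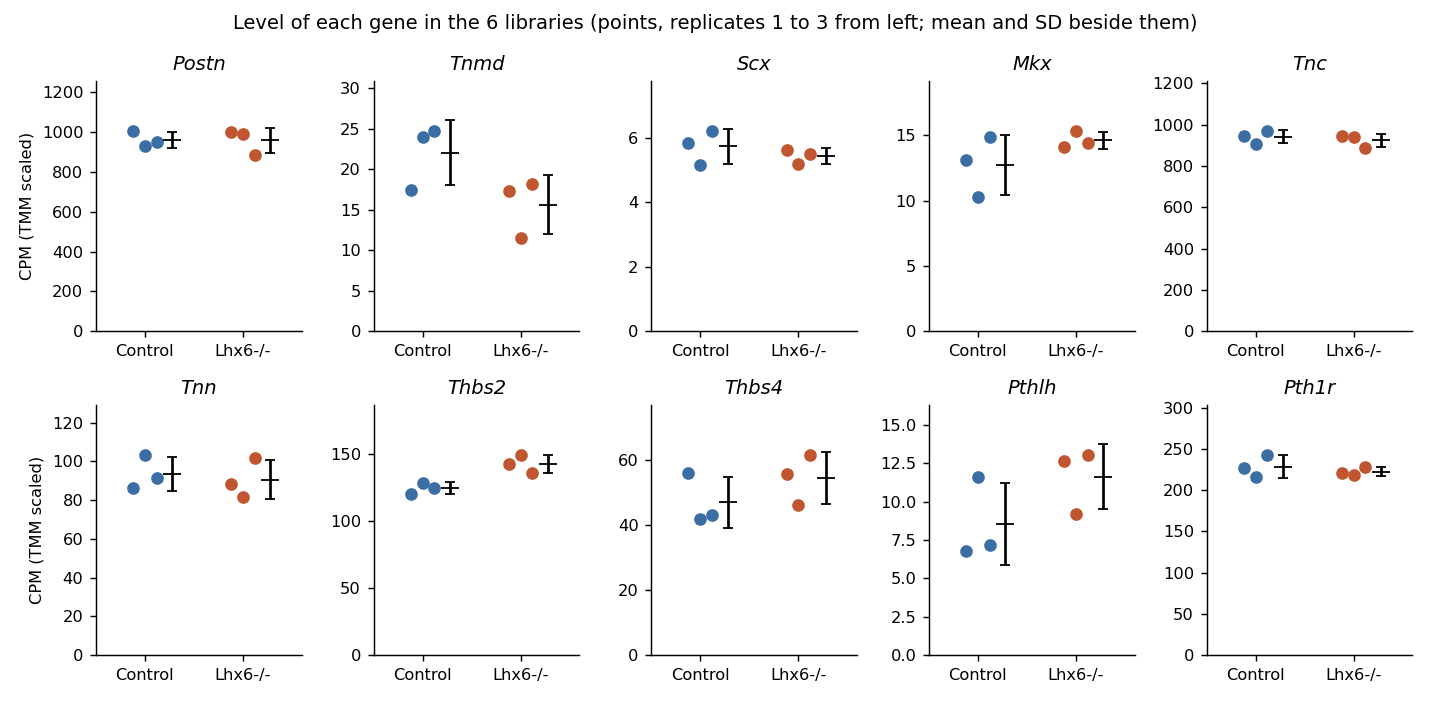
Level of each of the 10 genes in CPM (vertical axes, from 0) in the 3 control and 3 Lhx6-/- libraries, replicates 1 to 3 from left, with the mean and SD beside the points. The groups overlap in 9 panels, and in the Thbs2 panel the Lhx6-/- libraries (136 to 150 CPM) lie above the control libraries (121 to 129 CPM).

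None of the 3 tendon and ligament lineage genes was called, and their estimates lay near 0 for scleraxis, above 0 for Mohawk and below 0 for tenomodulin. Scleraxis, a basic helix-loop-helix factor of tendon and ligament progenitors, was the least abundant of the 10. Scx (chromosome 15, 76457452 to 76459458, plus strand) was at 5.85, 5.15 and 6.21 CPM in the control and at 5.63, 5.17 and 5.51 CPM in the Lhx6-/- libraries. The Lhx6-/- libraries lay inside the control range. The log2 fold change was -0.077 ± 0.15 (SE), with a 95% interval from -0.41 to 0.26 (adjusted p = 0.934, edgeR), from 344 to 410 counts per library. Scx lies inside Bop1 on the opposite strand, at 30.1 CPM, but shares 0 exon bases with it. Mohawk, a homeobox factor needed for tendon collagen, lies on chromosome 18, where it shares 201 exon bases with a same-strand transcript that is not among the genes counted here. Mkx was at 13.1, 10.3 and 14.8 CPM in the control and at 14.1, 15.3 and 14.4 CPM in the Lhx6-/- libraries. Control replicate 2 was low and the other five lay close together. For Mkx the log2 fold change was 0.20 ± 0.13 (SE), with a 95% interval from -0.089 to 0.49 (adjusted p = 0.708, edgeR), and it was 0.067 without Control replicate 2 and 0.32 without Control replicate 3 (adjusted p = 0.631).

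Tenomodulin had the lowest fold change of the 10. Tnmd (chromosome X, 133850980 to 133865577, plus strand) was at 17.5, 24.0 and 24.7 CPM in the control and at 17.3, 11.5 and 18.1 CPM in the Lhx6-/- libraries. The separation rested on the high Control replicates 2 and 3 and the low Lhx6-/- replicate 2, while Control replicate 1 lay between Lhx6-/- replicates 1 and 3. The means were 22.0 ± 3.98 and 15.6 ± 3.61 CPM (SD, n = 3 each), so that the Lhx6-/- mean was 70.9% of the control mean, with a 95% interval of the fold from 0.527 to 0.954. The log2 fold change was -0.50 ± 0.19 (SE; unadjusted p = 0.0279, adjusted p = 0.431, edgeR), and Tnmd met neither call rule. It met the rule of 1.5-fold and unadjusted p without Control replicate 1 (log2 fold change -0.64) and without Lhx6-/- replicate 3 (-0.62). It also met it with libraries scaled to equal mesenchyme sums (-0.62), where the median of all genes was -0.12. Less that median, the value of Tnmd was -0.50. The adjusted p of Tnmd over the 15 alternatives ran from 0.153 to 0.796. Tnmd lies on the X chromosome, and the libraries differed in their sex mixture. Xist was at 792, 411 and 628 CPM in the control and at 290, 0.228 and 0.054 CPM in the Lhx6-/- libraries. Sums of 4 Y-linked genes were 14.6 to 58.0 CPM in control and 55.1 to 92.1 CPM in Lhx6-/- libraries. Lhx6-/- replicates 2 and 3, both nearly without Xist, had 11.5 and 18.1 CPM of Tnmd, and the part of sex in the difference was not tested.

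The PTHrP ligand had a higher mean in Lhx6-/- tissue, within a wide spread and without passing either call rule, and the receptor had nearly equal means. Pthlh (chromosome 6, 147252101 to 147264183, minus strand) was at 6.78, 11.6 and 7.20 CPM in the control and at 12.6, 9.22 and 13.1 CPM in the Lhx6-/- libraries. Control replicate 2 and Lhx6-/- replicate 2 each lay on the other group's side, so the groups overlapped. The means were 8.54 ± 2.69 and 11.6 ± 2.10 CPM (SD, n = 3 each), a fold of 1.36 with a 95% interval from 0.976 to 1.90. On the log2 scale the fold change was 0.44 ± 0.22 (SE; unadjusted p = 0.0660, adjusted p = 0.561, edgeR). Without Control replicate 2 it was 0.74 (adjusted p = 0.136) and without Lhx6-/- replicate 2 it was 0.59, and in both fits Pthlh met the rule of 1.5-fold and unadjusted p. Summed nerve and glia markers were at 202, 546 and 379 CPM in the control and at 432, 217 and 527 CPM in the Lhx6-/- libraries. Y-linked sums were at 17.4, 58.0 and 14.6 CPM in the control and at 55.1, 92.1 and 88.5 CPM in the Lhx6-/- libraries. The part of nerve tissue or sex in the Pthlh values was not tested.

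The receptor gene Pth1r encodes a G protein-coupled receptor found on osteoblasts, chondrocytes and follicle cells. Pth1r (chromosome 9, 110722085 to 110747145, minus strand) was at 227, 216 and 243 CPM in the control and at 220, 219 and 228 CPM in the Lhx6-/- libraries. All Lhx6-/- libraries lay inside the control range. The log2 fold change was -0.039 ± 0.072 (SE), with a 95% interval from -0.20 to 0.12 (adjusted p = 0.927, edgeR). It shares 95 exon bases with Myl3, a muscle gene on the opposite strand at 4.67 CPM. Per kilobase of exon, the ratio of Pthlh to Pth1r was 0.0535 to 0.0974 in control and 0.0761 to 0.104 in Lhx6-/- libraries. The ligand transcript was thus below the receptor transcript in every library.

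Levels can be set side by side between genes only per length, here as CPM per kilobase of merged exons. On this scale Tnc and Postn were the highest, with means over all 6 libraries of 119.9 and 110.4, and their ranges overlapped. Pth1r followed at 77.1 (73.8 to 83.1), apart from the genes on either side. Thbs2 (19.1), Tnn (15.8), Thbs4 (15.4) and Tnmd (13.9) formed a middle group in which each overlapped the next. Pthlh stood alone at 6.23 (4.19 to 8.07), and the 2 transcription factors were lowest, Mkx at 3.34 and Scx at 2.78, with overlapping ranges. The matrix genes of the list were thus far above its transcription factors, and the genes with the widest intervals, Tnmd and Pthlh, were not the least abundant. Scx had 344 to 410 counts per library and Pthlh 422 to 972, yet the standard error of the log2 fold change was 0.15 for Scx and 0.22 for Pthlh.

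**Figure D3:**
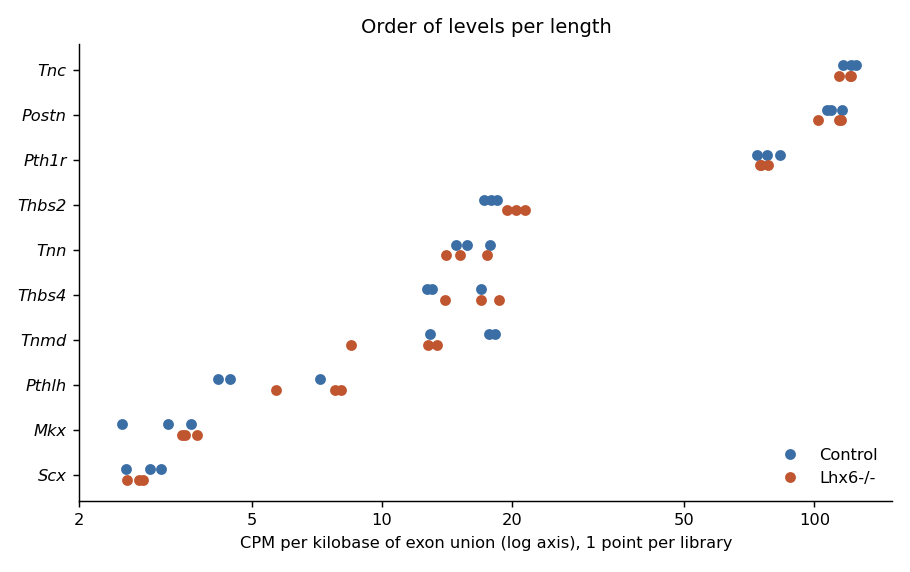
CPM per kilobase of merged exons (horizontal log axis) of the 10 genes in each library, 1 point per library, control above Lhx6-/-. Tnc and Postn lie highest (102 to 125), Pth1r next (73.8 to 83.1), and Mkx and Scx lowest (2.51 to 3.74).

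No single library was high or low for all 10 genes. Control replicate 3 had the highest value of 4 genes and the lowest of 0, and Control replicate 2 the highest of 1 and the lowest of 4. Lhx6-/- replicate 1 had neither the highest nor the lowest value of any of them. Deviations from the mean of the 6 libraries were within 0.17 (log2) for Postn, Scx, Tnc, Tnn, Thbs2 and Pth1r, and reached -0.67 for Tnmd, -0.52 for Pthlh, -0.40 for Mkx and 0.30 for Thbs4.

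**Figure D4:**
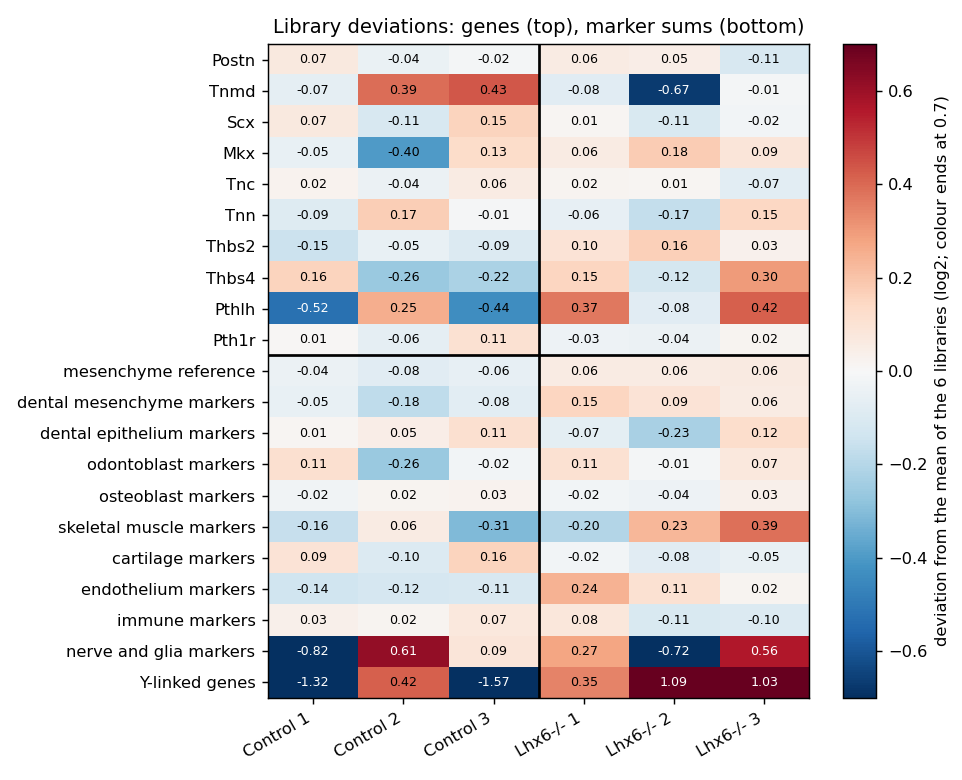
Deviation of each library (columns) from the mean of the 6 libraries, in log2 units, for the 10 genes (upper rows) and for summed marker lists (lower rows); red is above and blue below the mean. Tnmd is low in Lhx6-/- replicate 2 (-0.67) and high in Control replicates 2 and 3, and Pthlh is low in Control replicates 1 and 3.

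Genes related to the 10 were read from 5 lists, with 91 genes in the table, all but Pth2r tested in the same model. Of all genes tested, 49.7% lay higher in Lhx6-/- tissue and 3.28% met the rule of 1.5-fold and unadjusted p. Of 7 relatives tested from the same gene families, 6 lay higher and 1 lower, and 3 met that rule. With libraries scaled to equal mesenchyme sums the split was 5 and 2. The list median was then 0.057, where that of all genes was -0.12. Tgfbi, which encodes a secreted fasciclin-domain protein like periostin, was at 79.9, 94.3 and 79.5 CPM in the control and at 154, 123 and 119 CPM in the Lhx6-/- libraries. The groups did not overlap, and the log2 fold change was 0.64 ± 0.11 (SE; adjusted p = 0.0299, edgeR), while that of Postn was -0.0036 ± 0.081. The adjusted p of Tgfbi was under 0.05 in 10 of the 15 alternative fits. Leaving out Control replicate 1 raised it to 0.0676, Control replicate 3 to 0.187 and Lhx6-/- replicate 2 to 0.0879. Leaving out Lhx6-/- replicate 1 raised it to 0.0836 and took the fold below the rule (log2 fold change 0.52), and it was 0.0698 with libraries scaled to equal mesenchyme sums (0.52).

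The closest relative of tenomodulin is chondromodulin (Cnmd), a cartilage membrane protein, and its estimate lay in the opposite direction. Cnmd was at 1.69, 0.569 and 0.609 CPM in the control and at 8.46, 3.05 and 3.47 CPM in the Lhx6-/- libraries, without overlap. Its log2 fold change was 2.38 ± 0.57 (SE; unadjusted p = 0.00354, adjusted p = 0.219, edgeR), so it met the fold rule and did not pass adjustment. It met that rule in 15 of 15 alternative fits, but its size rested on single libraries, with a log2 fold change of 1.77 without Lhx6-/- replicate 1 (adjusted p = 0.346) and 3.08 without Control replicate 1 (adjusted p = 0.0384). The adjusted p was under 0.05 in 3 of the 15. Summed cartilage markers were 1811 to 2159 CPM in control and 1832 to 1913 CPM in Lhx6-/- libraries. Col11a1 was the most abundant gene of that sum, with a mean of 1026 CPM. Of its 7 genes, 5 lay higher in Lhx6-/- tissue and 2 met the rule. The part of cartilage in the Cnmd values was not tested. Tnr, a tenascin of the nervous system, was at 2.06, 0.539 and 1.49 CPM in the control and at 0.900, 0.349 and 0.443 CPM in the Lhx6-/- libraries. It met the same rule downward with overlapping groups (log2 fold change -1.27 ± 0.53, SE; adjusted p = 0.456, edgeR), at levels far below those of Tnc and Tnn. It no longer met the rule without Control replicate 1 (-0.84), Control replicate 3 (-1.20), Lhx6-/- replicate 2 (-1.02) or Lhx6-/- replicate 3 (-1.13), where its unadjusted p was 0.0745 or more. With every library kept, Tnr also missed the rule by limma (-1.14, unadjusted p = 0.0534).

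Among 12 further factors of tendon and ligament formation, 1 met the rule, beside 3.28% of all genes. Gdf6, a growth factor of joints and tendons, was at 1.35, 1.15 and 1.84 CPM in the control and at 0.900, 0.564 and 0.403 CPM in the Lhx6-/- libraries (log2 fold change -1.22 ± 0.40, SE; adjusted p = 0.299, edgeR). Tgfb3, Tgfb2 and Egr1, the most abundant of these factors, had log2 fold changes of 0.24, 0.089 and 0.28, and none met the rule. The median of the list was 0.090, with 9 higher and 3 lower, or 5 and 7 with libraries scaled to equal mesenchyme sums. Under that scaling the list median was -0.030, where that of all genes was -0.12.

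Of 24 genes of the ligament matrix, 20 lay higher and 4 lower in Lhx6-/- tissue, with a median log2 fold change of 0.10, beside 49.7% of all genes tested that lay higher. That split of signs depended on the scaling, which also moved the median of all genes, from -0.0019 to -0.12. The sums of general mesenchyme, dental mesenchyme and endothelial markers were also higher in Lhx6-/- libraries, by 1.09, 1.15 and 1.19 times and without overlap. With libraries scaled to equal mesenchyme sums, 11 lay higher and 13 lower, with a median of -0.015 where that of all genes was -0.12. Less that of all genes, the list median was 0.11. Without that scaling, 6 of the 24 had an unadjusted p under 0.05 (edgeR), beside 9.81% of all genes. In 10 of the 24 the groups did not overlap. That was so for 15.5% of all genes and 17.3% of the genes at least as abundant as the lowest of the 10. None met the 1.5-fold rule, and 1 had an adjusted p under 0.05. This was Eln, the gene of elastin, at 141, 136 and 139 CPM in the control and at 186, 205 and 179 CPM in the Lhx6-/- libraries. Its libraries did not overlap, and its log2 fold change was 0.46 ± 0.073 (SE; adjusted p = 0.0210, edgeR), under 0.05 after adjustment in 11 of 15 alternative fits. The adjusted p was 0.151 without Control replicate 3, 0.0836 without Lhx6-/- replicate 1, 0.130 without Lhx6-/- replicate 2 and 0.0698 with libraries scaled to equal mesenchyme sums. The fibril collagen genes Col1a1 and Col1a2 and the collagen-binding Sparc were the most abundant, with log2 fold changes of 0.088, 0.039 and 0.025.

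The receptors for these matrix proteins and the PTHrP pathway complete the lists. Of 19 receptors, 16 lay higher and 3 lower, or 8 and 11 with libraries scaled to equal mesenchyme sums. Under that scaling the list median was -0.058, where that of all genes was -0.12. Without that scaling 1 receptor met the rule, beside 3.28% of all genes. This was Itga8, an integrin subunit of mesenchymal cells, at 6.94, 6.52 and 7.46 CPM in the control and at 11.4, 11.3 and 9.23 CPM in the Lhx6-/- libraries (log2 fold change 0.61 ± 0.14, SE; adjusted p = 0.109, edgeR). It fell below 1.5-fold without Control replicate 2 (0.56), Lhx6-/- replicate 1 (0.56) or Lhx6-/- replicate 2 (0.57) and with libraries scaled to equal mesenchyme sums (0.49). The most abundant receptor genes were Lrp1, Itgb1 and Itgb5, with log2 fold changes of 0.20, 0.094 and 0.021. Of 28 genes acting downstream of Pth1r, 20 lay higher and 8 lower, or 8 and 20 under that scaling. The list median was then -0.067, where that of all genes was -0.12. Without that scaling 0 met the 1.5-fold rule, 0 passed adjustment and 1 had an unadjusted p under 0.05. The shares of all genes were 3.28%, 0.403% and 9.81%. For 27 of the 28 the 95% interval lay within 1.5-fold, beside 54.2% of all genes tested. Gnas, which encodes the G protein subunit that couples the receptor to cyclic AMP, was at 1271 and 1283 CPM on average (log2 fold change 0.014). Mmp13, a collagenase gene, and Prkar1a, a regulatory subunit of protein kinase A, had log2 fold changes of 0.20 and 0.047.

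**Figure D5:**
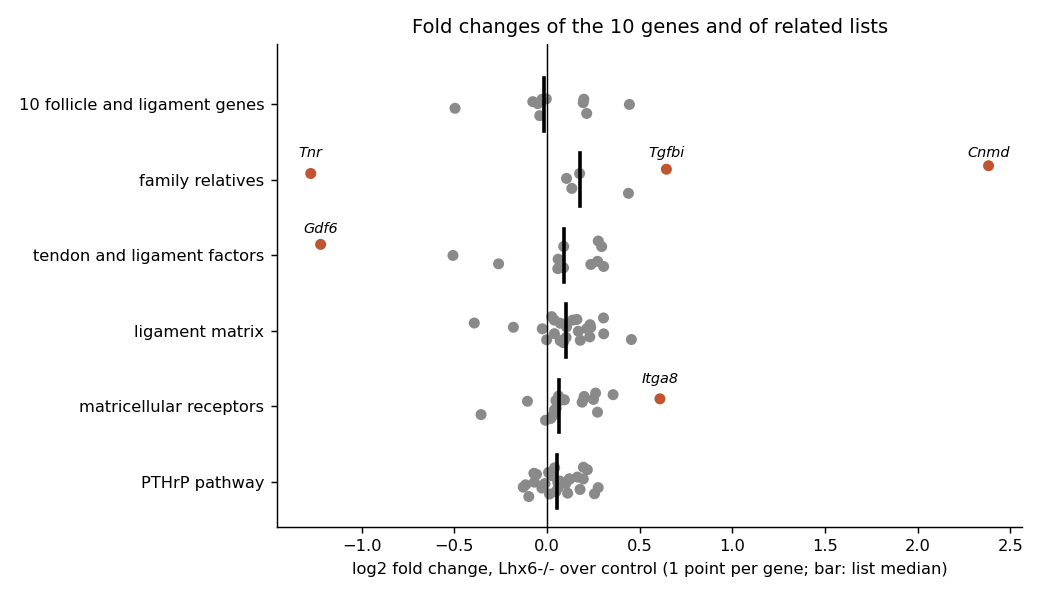
Log2 fold change, Lhx6-/- over control, of the 10 genes and of the tested genes in 5 related lists, 1 point per gene, with the list median as a bar; named orange points met the rule of 1.5-fold and unadjusted p. The medians run from -0.015 for the 10 genes to 0.18 for their family relatives, and Cnmd lies at 2.38.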

How the data were processed

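RNA of 3 control and 3 Lhx6-/- libraries was sequenced by the authors, aligned to mm10 (GRCm38) with STAR 2.6.1d and quantified per gene in Partek, per the submitters' processing notes; the annotation used for counting and its strand setting are not given in the sources used here. The authors deposited estimated counts of 23594 genes, without normalization, each reaching at least 10 in some library. A second deposited table holds their comparison (mean values, a ratio, a fold change, a p-value and a false discovery rate per gene), of which only gene names, positions and total counts were used. Gene names were tied to the count table through those totals (largest relative deviation 1.14e-07). Libraries sum to 60132323 to 76157433 counts. The Lhx6-/- libraries carry other numbers in the table, and the titles' replicate numbers are used. No 2 libraries of the same group were alike within sampling noise (chi-square per gene 18.7 to 52.0 over the pairs within groups). Pairs between groups were not compared this way.

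Estimated counts were rounded and tested two-sided for genotype alone with edgeR 4.0.16 (quasi-likelihood, TMM, robust, its expression filter) in R 4.3.3, over 20114 genes, with Benjamini-Hochberg adjustment. The SE is the size of the log2 fold change over the square root of F, and the biological coefficient of variation was 0.202. Exon lengths came from GENCODE vM21, where 23058 genes had the authors' chromosome and start. Their end lay 1 base past the annotation's in 22970 genes, and 1 was subtracted. The named genes are the 10, Lhx6, every gene of the related lists that met a call rule, and otherwise up to 3 per list of the highest mean CPM. The 10 genes, the lists and the tests were chosen with earlier results of these data known. DESeq2 1.42.0, limma 3.58.1, other scalings and filters, a block on the replicate number and fits that each lacked 1 library were the alternatives. The fits were tested on simulated data.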

Additional observations from a re-analysis of the deposited data

How the results depend on the processing

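None of the 10 genes had an adjusted p under 0.05 in any of the 15 alternative fits, and the lowest was 0.136 (Pthlh, edgeR, without Control replicate 2). The sign of Tnmd, Scx, Mkx, Thbs2, Thbs4 and Pthlh was the same in all 15. Postn changed sign, to a log2 fold change of 0.0054 under upper-quartile and 0.013 under total-count scaling. Leaving out each library in turn, the log2 fold changes ran from -0.033 to 0.051 for Postn, -0.051 to 0.0032 for Tnc, -0.14 to 0.028 for Tnn and -0.077 to 0.0081 for Pth1r, all crossing 0. They ran from -0.64 to -0.31 for Tnmd, 0.31 to 0.74 for Pthlh, 0.16 to 0.23 for Thbs2, 0.12 to 0.36 for Thbs4, 0.067 to 0.32 for Mkx, -0.15 to -0.015 for Scx and -1.17 to -0.86 for Lhx6. Of the 10 genes, 0 to 1 met the rule of 1.5-fold and unadjusted p when a library was left out. This was Tnmd without Control replicate 1 or Lhx6-/- replicate 3, and Pthlh without Control or Lhx6-/- replicate 2. With libraries scaled to equal mesenchyme sums 1, Tnmd, met it. That scaling moved the median log2 fold change of all genes to -0.12. In the related lists that scaling left 3 genes that met the rule in place of 5, and 0 in place of 2 with an adjusted p under 0.05. DESeq2 gave 7, among them Eln and Tgfbi, and leaving out a library gave 3 to 5 and 0 to 2. Over all genes, 81 had an adjusted p under 0.05, 298 by DESeq2 and 12 to 127 with a library left out. The causes were not tested.

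The paper speaks of 3 pairs of samples and of mutants that were littermates, but does not say which libraries form a pair. No source says that a replicate number marks a shared litter. Deviations of libraries with the same number in the titles had correlations of 0.026, -0.029 and -0.031, with no library correlating best with its own number. By the numbers of the count table only 2 pairs can be formed, with correlations of -0.062 and -0.0064. The numbers were therefore not taken as pairs, which does not exclude a pairing by litter. With the number as a replicate block, 134 of all genes had an adjusted p under 0.05, 0 of the 10 (lowest 0.424, Thbs2) and 3 of the related lists (Cnmd, Eln and Tgfbi). With 3 libraries a group, each a pool of molars, the differences between pools set how small a change could be seen, and every one of the 10 genes had at least 344 counts in each library.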

Other observations

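Ratios between related genes, per kilobase of exon, overlapped between the groups in the 5 pairs computed, as a description without a test. Tnn was at 0.122 to 0.152 of Tnc in control and at 0.116 to 0.153 in Lhx6-/- libraries, and Thbs4 at 0.691 to 0.987 and 0.654 to 0.960 of Thbs2. Tnmd exceeded Scx, the factor of its lineage, by 4.43 to 6.90 times in control and 3.30 to 4.88 times in Lhx6-/- libraries, and was at 0.112 to 0.167 and 0.0745 to 0.131 of Postn.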
